A study of Mus musculus with 54 samples.

Results

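Leucine supply is reported to the growth kinase complex mTORC1 by a small set of proteins, and 10 of their genes were followed here through cultured lung fibroblasts and bleomycin-injured mouse lungs. The genes were taken by symbol from 4 expression tables: the sestrins Sesn1, Sesn2 and Sesn3, the GATOR1 subunit Depdc5, the Rag GTPases Rragc and Rragd, folliculin (Flcn), the kinase Mtor, its scaffold raptor (Rptor) and the mTORC1 inhibitor Ddit4, also called REDD1. These are 10 of the 26264 genes in the fibroblast table, and of 32534, 34652 and 35003 genes in the tables of 3 mouse experiments. All 10 were present in every table and passed the low-value filter in each, a level of at least 1 TPM in at least 3 libraries. TPM is a share of a library's transcripts adjusted for gene length, so levels of different genes can be compared within a library.

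When amino acids are plentiful, Rag GTPase pairs recruit mTORC1 to the lysosome surface, where it is switched on. Sestrins that are not bound to leucine hold back GATOR2, which frees GATOR1 (with Depdc5) to switch off RagA and RagB, while folliculin acts on RagC and RagD. The circuit is also written at the transcript level: Sesn2 and Ddit4 are known targets of the stress factor ATF4, Sesn1 of p53 and FoxO, and Rragc, Rragd and Flcn of TFEB and TFE3, lysosome gene activators that mTORC1 restrains.

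The proximal promoters of the pair of Rag genes and of Sesn2, which shared a pattern in fibroblasts with each other and with Rptor, are shown first. Each line gives the 250 bases before the gene's start, 5′ to 3′ on the gene's strand, from RefSeq on build GRCm38.p6 and matched by symbol, since the expression tables hold no positions and were made on mm39. The windows are chr4:123917183-123917432 (plus strand) for Rragc, chr4:32982748-32982997 (plus strand) for Rragd and chr4:132510457-132510706 (minus strand) for Sesn2. Capitals mark the only motif match, an E-box.
Rragc: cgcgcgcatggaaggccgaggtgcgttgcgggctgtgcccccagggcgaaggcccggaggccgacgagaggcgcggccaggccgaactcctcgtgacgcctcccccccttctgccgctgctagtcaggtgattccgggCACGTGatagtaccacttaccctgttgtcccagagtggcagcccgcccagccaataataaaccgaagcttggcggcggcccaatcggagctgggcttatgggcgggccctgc
Rragd: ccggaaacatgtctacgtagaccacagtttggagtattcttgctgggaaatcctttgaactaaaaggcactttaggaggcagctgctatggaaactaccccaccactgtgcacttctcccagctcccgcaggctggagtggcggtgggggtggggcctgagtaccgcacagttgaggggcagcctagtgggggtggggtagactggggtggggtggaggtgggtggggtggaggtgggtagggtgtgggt
Sesn2: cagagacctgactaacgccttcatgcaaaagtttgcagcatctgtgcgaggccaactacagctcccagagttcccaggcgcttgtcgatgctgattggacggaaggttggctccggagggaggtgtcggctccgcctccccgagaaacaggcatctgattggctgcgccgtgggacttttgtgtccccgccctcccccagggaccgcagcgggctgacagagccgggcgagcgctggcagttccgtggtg
Both strands of the 11 promoter windows of the 10 genes (Sesn1 has 2) were searched for 3 short motifs, none of which contains another. The E-box CACGTG, the core of the element bound by TFEB, was found in 1 gene, Rragc, 112 to 107 bases before the start, and in 6.02% of 32851 mouse promoter windows of this length. The ATF composite motif TGATGNAA occurred in 0 of the 10 genes and in 3.45% of all windows. The forkhead motif GTAAACA also occurred in 0 of the 10, against 3.17% of all windows. A match describes these letters only, and motifs farther from the start were not searched.

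The samples were all wild-type mouse material: 54 poly(A)-selected RNA libraries in 17 groups. Primary lung fibroblasts, taken at 6 to 8 weeks of age, made up 8 groups of 3 libraries. For 24 h they were kept in complete medium or in medium lacking leucine, isoleucine and valine, the branched-chain amino acids (BCAA), with nothing, BCAA or branched-chain keto acids (BCKA) returned to it. PBS or TGF-β1 (20 ng/mL), the cytokine that drives fibroblasts towards scar-forming myofibroblasts, then followed for 48 h. The whole lungs were those of C57BL/6 males aged 10 to 12 weeks in 3 experiments. The water experiment had 3 mice in each group: PBS, bleomycin (1.25 mg/kg) and bleomycin with 3 mM BCAA in the drinking water, begun 7 days earlier, all collected at day 14. The diet experiment had 4 mice in each group: PBS and bleomycin (1.25 mg/kg) on normal food, and bleomycin with food lacking BCAA, begun at day 7 and kept up for 14 days until collection at day 21. The BT2 experiment had 3 mice in each group, collected at day 14: PBS, bleomycin (3.5 mg/kg) with daily 10% DMSO, and bleomycin with daily BT2 (20 mg/kg), both begun at day 3 and given for 11 days. BT2 inhibits the kinase that restrains BCKA breakdown. The PBS mice of that experiment carry DMSO in their title but PBS alone as treatment. Nothing in the labels says that replicate libraries came from separate cultures, so p-values measure the spread between these samples.

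Of the 5 fibroblast markers, Col1a1 lay between 3145 and 27680 TPM and Pdgfra between 448 and 1385 TPM in the fibroblast libraries, while Lum ranged from 0.614 to 23.0 TPM. Of the 4 leukocyte markers, Ptprc reached at most 0.1 TPM, Itgam 0.105 TPM, Lyz2 6.13 TPM and Cd68 7.2 TPM. Of the 4 epithelial markers, Cdh1 reached at most 0.178 TPM, Epcam 1.15 TPM, Krt8 2.28 TPM and Krt18 2.38 TPM. The lung libraries held alveolar type 2 transcripts throughout (4 markers, all above 1 TPM in every library, summed 2245 to 75210 TPM). A few libraries stood apart from their groups. Replicate 1 of BCAA-free medium with TGF-β1 correlated at 0.953 and 0.966 with its partners across genes, against 0.994 between those. Replicate 2 of complete medium with TGF-β1 correlated at 0.984 and 0.985, against 0.997 between its partners. Replicate 3 of the BCAA-free diet listed 17554 genes above 0, against 24329 to 25632 in its group, and correlated at 0.881 to 0.894 with it. Because only TPM values were used, the read depth behind each value is unknown. Differences are given below as mean differences of log2(TPM + 1) ± SE from limma, with adjusted p-values over all genes of a table, and a gene is called changed at an adjusted p under 0.05. The added 1 makes the change of a low gene look smaller.

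Withdrawing BCAA from fibroblasts that received TGF-β1 called 8 of the 10 genes. Of the 10 genes, 6 rose (Sesn2, Rragc, Rragd, Flcn, Rptor and Mtor), 2 fell (Sesn1 and Sesn3), and Ddit4 and Depdc5 did not pass the test. The background was high, since 60.3% of all 13084 genes tested were called, so the count is not read as particular to these genes. The median difference was 0.61 over the 10 genes and 0.10 over all genes tested. Centring every library on its median, which moves all genes by 0.11 here, left the split of the 10 genes at 6 and 2.

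**Figure D1:**
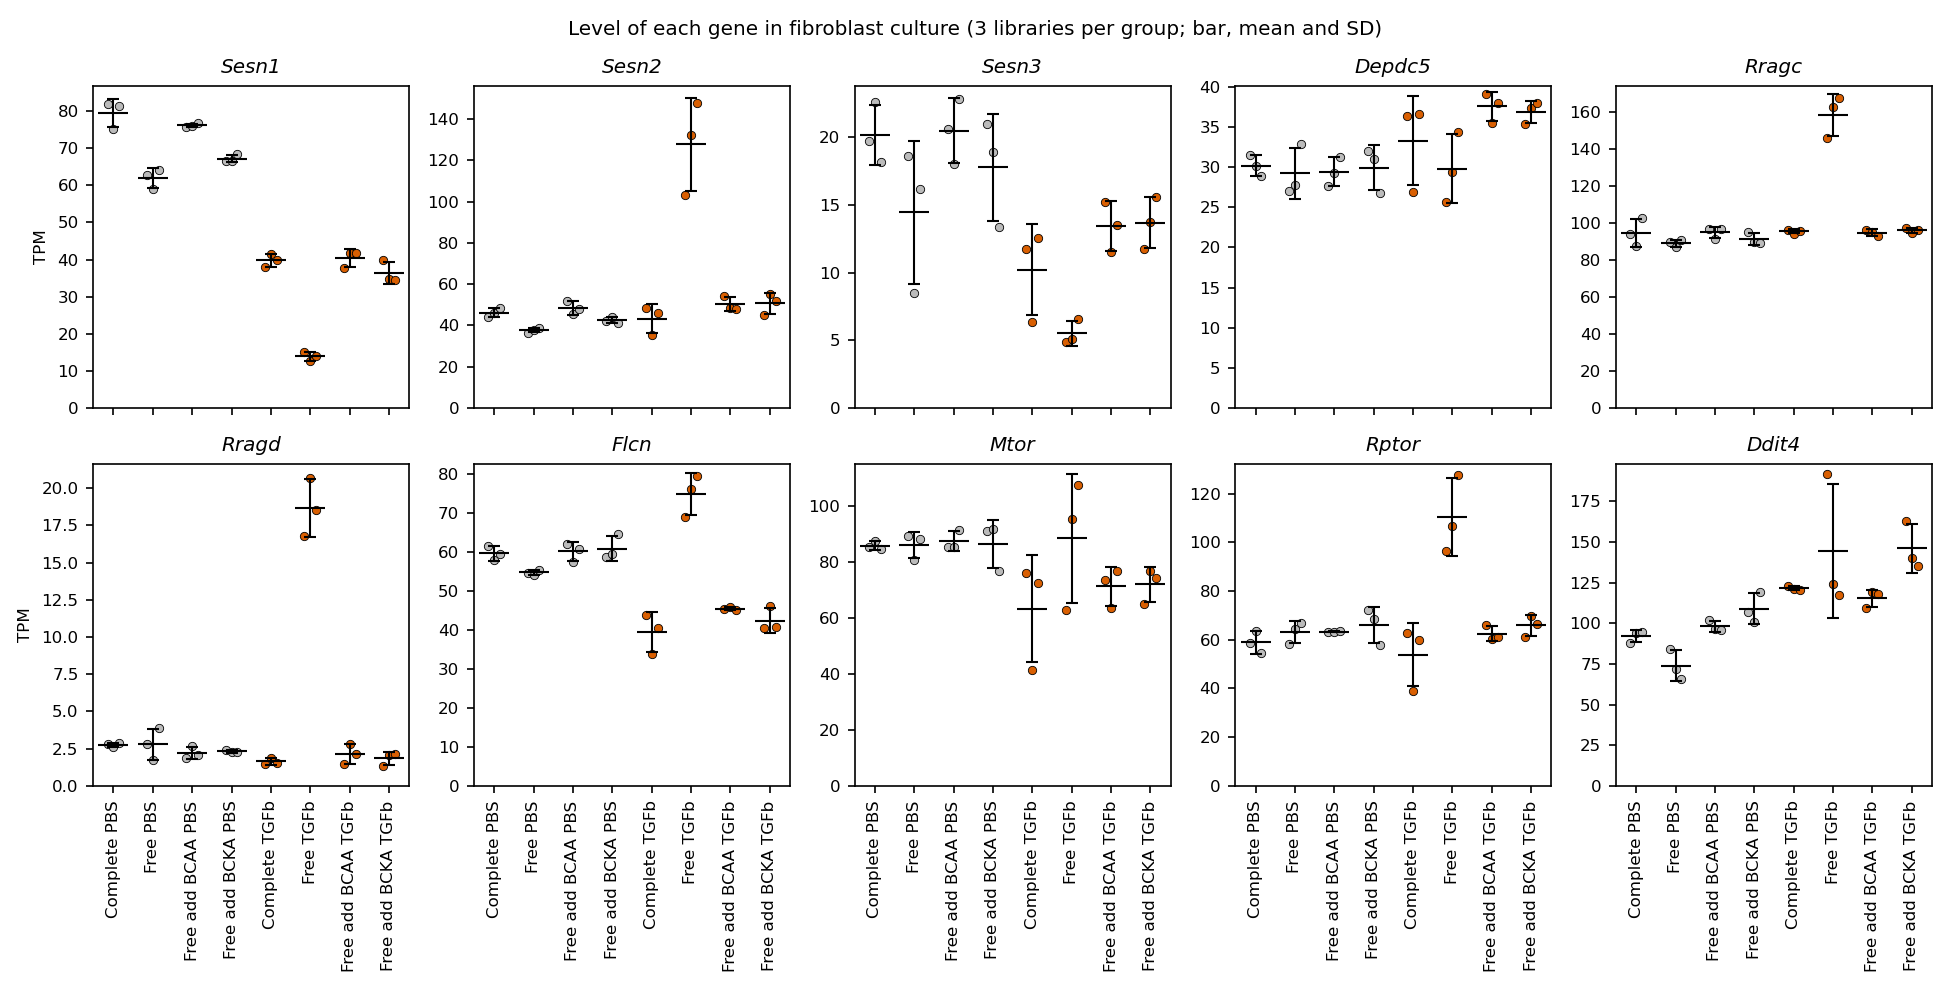
TPM (vertical axes, from 0) of the 10 genes in the 8 fibroblast groups; grey points are PBS libraries, orange points TGF-β1 libraries, and bars give mean and SD of 3 libraries. BCAA-free medium with TGF-β1 stands apart as the highest group for Sesn2, Rragc, Rragd, Flcn and Rptor and as the lowest for Sesn1.

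The sestrins went in opposite directions. Sesn2, the stress-induced sestrin, stood at 103, 132 and 148 TPM in BCAA-free medium with TGF-β1, against 48.5, 35.2 and 46.2 TPM in complete medium with TGF-β1. Every library without BCAA lay above every library of complete medium, a mean level 2.95-fold as high (1.54 ± 0.12, adjusted p = 4.57e-10). Sesn1, the sestrin long known as a p53-induced gene, stood at 15.1, 12.7 and 14.0 TPM without BCAA and at 38.0, 41.5 and 39.8 TPM with them. Here the groups were separate in the other direction, at a ratio of 0.350 (-1.45 ± 0.08, adjusted p = 1.83e-12). Sesn3, the third sestrin, was the scarcest of them in these cells, at 4.87, 5.09 and 6.57 TPM without BCAA and 11.7, 6.36 and 12.5 TPM with BCAA. Its groups overlapped through replicate 2 of complete medium (-0.74 ± 0.24, adjusted p = 0.00985), and its call was lost without replicate 1 or replicate 3 of that group (adjusted p = 0.0505 and 0.0619).

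Both Rag GTPases of the C/D class rose together with folliculin, the protein that makes them drop GTP. Rragd went from 1.50, 1.89 and 1.55 TPM in complete medium to 16.8, 20.7 and 18.5 TPM without BCAA, both with TGF-β1. The groups were far apart, with a mean ratio of 11.3 (2.89 ± 0.18, adjusted p = 6.72e-12), the largest difference among the 10 genes. Rragc, already abundant, went from 96.4, 94.3 and 95.5 TPM to 146, 162 and 167 TPM. This was a smaller step on a higher level, 1.66-fold (0.72 ± 0.07, adjusted p = 2.48e-08), and again no libraries overlapped. Rragd thus remained far below Rragc in every library, at a mean of 18.7 ± 1.93 TPM against 158 ± 11.3 TPM (SD, n = 3) without BCAA and with TGF-β1. Flcn stood at 68.8, 76.1 and 79.5 TPM without BCAA and 43.8, 33.9 and 40.5 TPM in complete medium, with all libraries without BCAA above (0.91 ± 0.09, adjusted p = 1.47e-08). The folliculin partners Fnip1 (62.7 against 34.8 TPM, 0.82, adjusted p = 1.6e-05) and Fnip2 (45.2 against 15.9 TPM, 1.43, adjusted p = 4.3e-08), which form its GTPase-activating complex, both rose as well.

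The next genes belong to the kinase complex and its brakes. Rptor, which presents substrates to the kinase, stood at 96.6, 107 and 128 TPM without BCAA and 62.8, 39.1 and 59.7 TPM in complete medium, both with TGF-β1. The groups did not overlap, at 2.05-fold (1.04 ± 0.14, adjusted p = 1.00e-06). Mtor, the kinase subunit, read 62.9, 95.3 and 108 TPM against 76.2, 41.5 and 72.5 TPM, and its groups overlapped (0.49 ± 0.18, adjusted p = 0.0219). That call was lost without replicate 2 of complete medium, the lowest library (0.22, adjusted p = 0.232), and without replicate 2 or 3 of BCAA-free medium (0.42, adjusted p = 0.0714, and 0.33, adjusted p = 0.138). Depdc5, the GATOR1 subunit that acts against RagA and RagB, read 25.7, 29.4 and 34.4 TPM against 36.3, 26.9 and 36.7 TPM with overlapping groups (-0.15 ± 0.12, adjusted p = 0.293). Ddit4, which restrains mTORC1 through the TSC complex, read 192, 124 and 117 TPM against 123, 121 and 120.4 TPM, where replicate 1 alone lay well above complete medium (0.21 ± 0.13, adjusted p = 0.176). Without replicate 1 of BCAA-free medium, the library that stood apart, 8 of the 10 genes were again called, 6 up and 2 down. The 5 fibroblast markers summed to 10930 to 56050 TPM in BCAA-free medium with TGF-β1 and to 37700 to 42090 TPM in complete medium with TGF-β1, and the 4 mesothelial markers to 12.2 to 16.5 against 34.3 to 36.7 TPM. Of these, 4 of 5 and 2 of 4 read at least 1 TPM in every BCAA-free library, and all did in complete medium. The fibroblast sum is mostly Col1a1 and Col1a2, which reached 27680 and 27860 TPM over all fibroblast libraries. Pdgfra, Dcn and Lum reached at most 1385, 583 and 23.0 TPM. The sum thus follows these collagens more than the other fibroblast markers. The part of the markers in the results was not tested.

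In fibroblasts that received only PBS, the same withdrawal called 1 of the 10 genes, against 0.91% of all genes. An unadjusted p under 0.05 in limma was reached by 4 of the 10 and by 987 of all 13084 genes. The called gene was Sesn1. Sesn1 stood at 62.8, 59.1 and 64.0 TPM without BCAA and 81.8, 75.1 and 81.5 TPM in complete medium, with every library lower (-0.35 ± 0.08, adjusted p = 0.0401). This call was lost when any single library was left out (adjusted p from 0.0672 to 0.232), and with a pseudocount of 0.5 or 0.1 or with median centring. Rragd read 2.78, 1.76 and 3.86 TPM against 2.80, 2.62 and 2.87 TPM, overlapping groups with a difference of -0.02 (95% interval -0.39 to 0.35). For Sesn2 the levels were 36.5, 38.0 and 38.6 TPM without BCAA and 44.0, 45.9 and 48.6 TPM with them, slightly lower in all libraries but short of the test (-0.29 ± 0.12, adjusted p = 0.526). Ddit4 (65.4 to 84.4 against 87.7 to 94.5 TPM) and Flcn (54.2 to 55.5 against 57.9 to 61.6 TPM) were also lower in all libraries without BCAA but not called.

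Whether the response to TGF-β1 differed between the media was tested directly as an interaction. It differed for 7 of the 10 genes, against 47.6% of all genes: more positive without BCAA for Rragd (2.92 ± 0.25, adjusted p = 4.90e-09), Sesn2 (1.82 ± 0.17, adjusted p = 1.96e-08), Flcn (1.03 ± 0.13, adjusted p = 9.09e-07), Rptor (0.94 ± 0.19, adjusted p = 3.92e-04), Rragc (0.81 ± 0.10, adjusted p = 1.74e-06) and Ddit4 (0.53 ± 0.19, adjusted p = 0.0245), and more negative for Sesn1 (-1.10 ± 0.12, adjusted p = 1.21e-07). Sesn3, Mtor and Depdc5 did not pass. The Ddit4 call was lost with median centring (0.41, adjusted p = 0.149) and without replicate 3 of BCAA-free medium with PBS (0.45, adjusted p = 0.0696). Without replicate 1 of BCAA-free medium with TGF-β1, 8 genes were called.

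Within BCAA-free medium, TGF-β1 called 8 of the 10 genes (background 64.1%): Sesn2, Rragc, Rragd, Flcn, Rptor and Ddit4 rose, Sesn1 and Sesn3 fell. Ddit4 went from 84.4, 72.1 and 65.4 TPM with PBS to 192, 124 and 117 TPM, with no overlap (0.93 ± 0.13, adjusted p = 2.70e-06). In complete medium the same cytokine called 6 of the 10 (background 48.6%), and most of these fell: Sesn1, Sesn3, Rragd, Flcn and Mtor, while Ddit4 rose. All genes drifted down there by a median of 0.20, and with median centring 3 of the 10 rose and 3 fell. Sesn1, at 81.8, 75.1 and 81.5 TPM with PBS, lay at 38.0, 41.5 and 39.8 TPM with TGF-β1, lower in every library (-0.98 ± 0.08, adjusted p = 2.01e-09). Flcn went from 61.6, 57.9 and 59.5 TPM to 43.8, 33.9 and 40.5 TPM, also without overlap (-0.59 ± 0.09, adjusted p = 1.18e-05). Sesn3 (-0.96 ± 0.24, adjusted p = 0.0019), Rragd (-0.51 ± 0.18, adjusted p = 0.0218) and Mtor (-0.48 ± 0.18, adjusted p = 0.0298) fell too. Centring removed the calls of Rragd and Mtor (adjusted p = 0.147 and 0.154). That of Rragd was also lost without replicate 1 or 3 of either group (adjusted p from 0.0538 to 0.0648). That of Mtor was lost without any of the 3 PBS libraries (adjusted p from 0.0581 to 0.0728) and without replicate 2 of complete medium with TGF-β1 (-0.21, adjusted p = 0.285). It was also lost without the low-value filter (adjusted p = 0.0524) and with only the compared groups (adjusted p = 0.0727). Ddit4 stood at 123, 121 and 120.4 TPM with TGF-β1 and 87.7, 93.8 and 94.5 TPM with PBS, higher in each library (0.40 ± 0.13, adjusted p = 0.0166). Its call was lost without replicate 1 of the PBS group (adjusted p = 0.0597), and without that library 3 of the 10 genes were called.

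Returning either BCAA or BCKA to cells with TGF-β1 moved Sesn1, Sesn2, Sesn3, Rragc, Rragd, Flcn and Rptor the other way. These comparisons share the libraries of BCAA-free medium with those above, so their values are given side by side and not as separate evidence. With BCAA returned, 8 of the 10 genes were called (background 58.3%), 3 up and 5 down, and with BCKA returned also 8 (background 58.4%), 3 up and 5 down. Sesn2 read 54.2, 48.6 and 48.0 TPM with BCAA and 45.2, 55.3 and 51.8 TPM with BCKA returned, all below every library without them (-1.32 and -1.30). Rragd read 1.50, 2.81 and 2.15 TPM with BCAA and 1.30, 2.09 and 2.12 TPM with BCKA (-2.66 and -2.80). Both sets lay far below the 16.8 to 20.7 TPM of BCAA-free medium.

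Rragc (96.2, 95.1 and 92.8 TPM with BCAA, 97.4, 94.5 and 95.9 TPM with BCKA) and Flcn (45.4, 45.9 and 45.1 and 40.4, 46.1 and 40.6 TPM) fell in the same way. Rptor fell too (-0.80 ± 0.14, adjusted p = 3.18e-05 with BCAA, and -0.73 ± 0.14, adjusted p = 9.88e-05 with BCKA). Sesn1 climbed to 37.7, 41.7 and 41.8 TPM with BCAA and 39.8, 34.7 and 34.5 TPM with BCKA, 2.90-fold and 2.61-fold as high as without them. Sesn3 reached 15.2, 11.5 and 13.5 TPM and 11.8, 13.7 and 15.6 TPM (1.15 ± 0.24, adjusted p = 2.63e-04 with BCAA, and 1.17 ± 0.24, adjusted p = 2.13e-04 with BCKA). Depdc5 rose a little with either (0.33 ± 0.12, adjusted p = 0.0218 with BCAA, and 0.31 ± 0.12, adjusted p = 0.0327 with BCKA). Its calls were lost without replicate 1 of BCAA-free medium with TGF-β1 (adjusted p = 0.091 and 0.129) and, for BCAA, without replicate 1 or 3 of the returned group (adjusted p = 0.0704 and 0.0556). For BCKA the same happened without replicate 2 of BCAA-free medium (adjusted p = 0.0596) or without replicate 2 or 3 of the returned group (adjusted p = 0.0749 and 0.0857). Mtor and Ddit4 were not called in either.

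**Figure D2:**
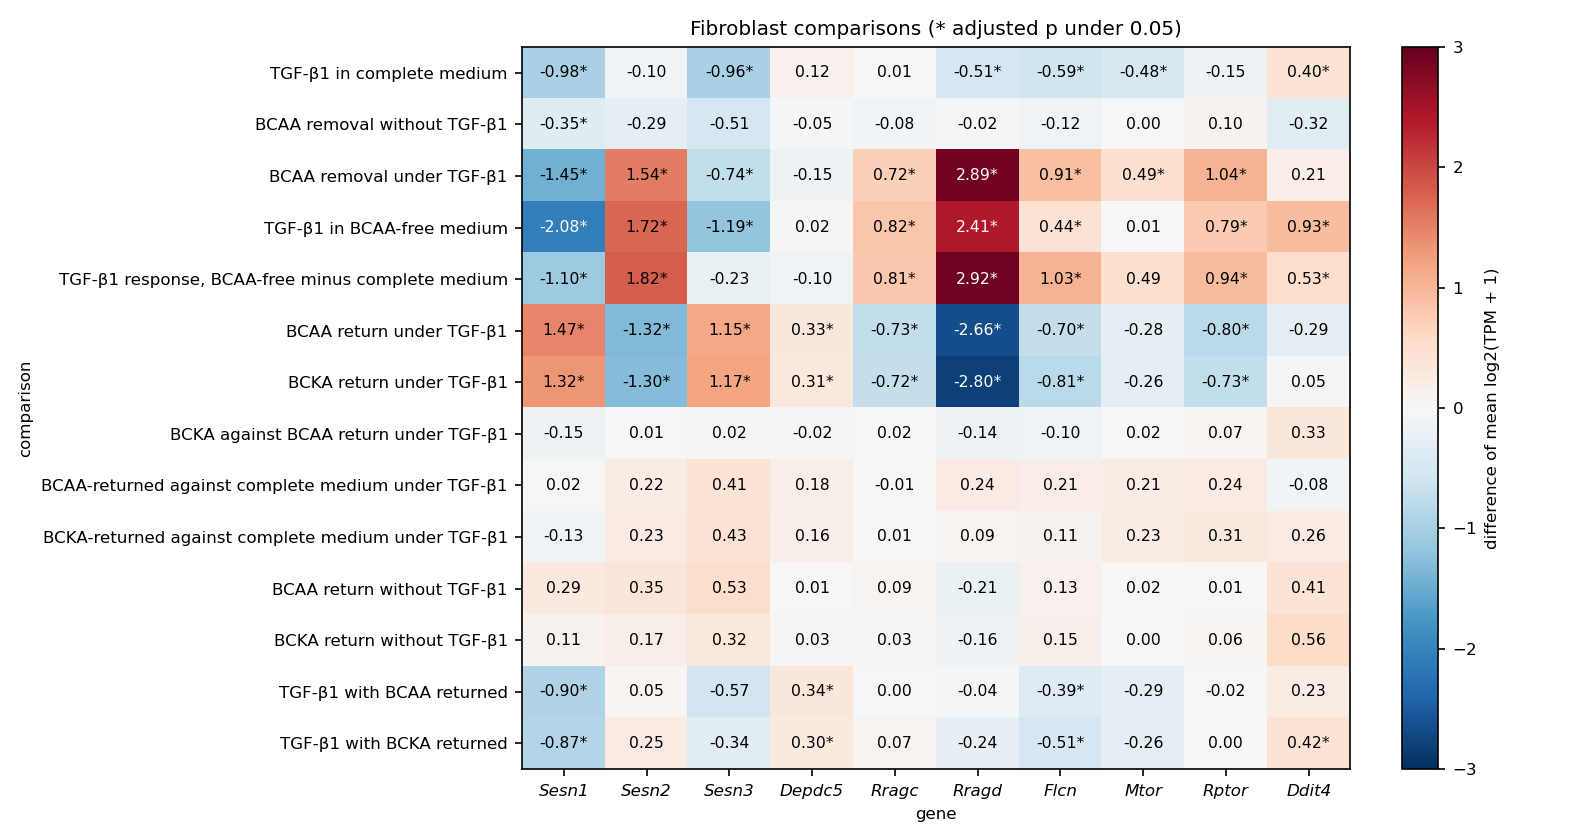
Mean difference of log2(TPM + 1) for the 10 genes (columns) in the 14 fibroblast comparisons (rows), coloured from blue (lower) to red (higher); a star marks an adjusted p under 0.05 in limma. The rows for BCAA removal and for BCAA or BCKA return under TGF-β1 carry opposite colours for Sesn1, Sesn2, Sesn3, Rragc, Rragd, Flcn and Rptor, and the row for BCKA against BCAA has no star.

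BCAA and BCKA differ in structure at 1 group, the amino group of the former being a keto group in the latter. They were compared directly within TGF-β1, 1 pair over 10 genes. In limma 0 of the 10 genes differed, against 0.268% of all genes. An unadjusted p under 0.05 was reached by 509 of all 13084 genes and by 1 of the 10. Ddit4 was that gene, with 163, 139.8 and 135 TPM after BCKA and 109, 119 and 118 TPM after BCAA, no overlap and a difference of 0.33 (95% interval 0.06 to 0.61, adjusted p = 0.982). For Rragd the interval ran from -0.51 to 0.22, for Sesn2 from -0.24 to 0.27 and for Sesn1 from -0.32 to 0.02, so differences within these bounds are not excluded. Set against complete medium with TGF-β1, 0 of the 10 genes were called after BCAA return (0.0153% of all genes) and 0 after BCKA return (0.611%). At an unadjusted p under 0.05 stood 1 of the 10 after BCAA return, against 262 of all 13084 genes. After BCKA return it was also 1, against 1157 of the 13084. The 95% intervals over the 10 genes reached from -0.35 to 0.90 for BCAA and from -0.30 to 0.92 for BCKA.

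Without TGF-β1 the returns called 0 of the 10 genes in limma, against 0.26% of all genes with BCAA and 0.665% with BCKA. An unadjusted p under 0.05 was reached by 769 of all 13084 genes with BCAA, 4 of the 10 among them. With BCKA it was reached by 884 of the 13084, and by 1 of the 10. The latter was Ddit4, at 107, 100.5 and 119 TPM with BCKA and 84.4, 72.1 and 65.4 TPM without, with no overlap (0.56 ± 0.13, adjusted p = 0.0574). TGF-β1 given with BCAA returned called 3 of the 10 genes (background 44.8%): Sesn1 (-0.90 ± 0.08, adjusted p = 8.38e-09) and Flcn (-0.39 ± 0.09, adjusted p = 0.00109) fell, and Depdc5 rose (0.34 ± 0.12, adjusted p = 0.0237). With BCKA returned it called 4 (background 45.8%), namely Sesn1 (-0.87 ± 0.08, adjusted p = 1.41e-08) and Flcn (-0.51 ± 0.09, adjusted p = 7.38e-05) down, Ddit4 (0.42 ± 0.13, adjusted p = 0.0133) and Depdc5 (0.30 ± 0.12, adjusted p = 0.0478) up. With median centring these became 2 up and 1 down with BCAA, where the Flcn call was lost (adjusted p = 0.0557), and 4 up and 2 down with BCKA. The Depdc5 calls were lost without any of 4 single libraries with BCAA (adjusted p from 0.0567 to 0.0882) and without any of 5 with BCKA (adjusted p from 0.062 to 0.193). Without replicate 2 of BCKA with PBS, or replicate 1 of BCKA with TGF-β1, 2 genes were called.

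Over all 8 fibroblast groups the ratio of the highest to the lowest group mean was 11.3 for Rragd, 5.7 for Sesn1, 3.71 for Sesn3 and 3.39 for Sesn2. It was 2.05 for Rptor, 1.97 for Ddit4, 1.9 for Flcn, 1.78 for Rragc, 1.4 for Mtor and 1.29 for Depdc5. Most neighbours in the order of means could not be separated: library ranges overlapped in 7 of 7 neighbouring pairs for Sesn3 and Depdc5, 6 for Rragc, Mtor and Rptor, 5 for Sesn2 and Rragd, 4 for Ddit4 and Flcn and 3 for Sesn1. BCAA-free medium with TGF-β1 was separate from its neighbour as the top group of Sesn2, Rragc, Rragd, Flcn and Rptor and as the bottom group of Sesn1. The share of all genes for which this group was a separate extreme is not given here. For Sesn1 the 4 TGF-β1 groups (means 13.9 to 40.4 TPM) all lay below the 4 PBS groups (62.0 to 79.5 TPM).

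Across the 8 group means, Pearson's r was 0.986 between Sesn2 and Rragc, 0.957 between Rragc and Rragd, 0.946 between Rragd and Rptor, and 0.93 between Sesn2 and Rragd. Sesn1 correlated at 0.95 with Sesn3 and at -0.853 with Sesn2. These are descriptions over 8 means that share their libraries. For Sesn2, Rragc, Rragd and Rptor, BCAA-free medium with TGF-β1 lay far above all other groups. Rragc, for example, had a mean of 158 TPM there and 89.0 to 95.9 TPM elsewhere. The r values of these genes, here and below, therefore rest largely on that group and do not describe the other conditions. Among 4036 other genes with a range of at least 1 log2 over the same means, those most like Rragd were Pdzd8 (0.996), Gfm1 (0.995) and Nip7 (0.995). Most like Sesn2 were Fxr2 (0.992), Rbm15 (0.992) and Vac14 (0.991). Most like Rptor were Lmtk2 (0.991), Mtr (0.989) and Fbxo42 (0.988). Most like Sesn1 were Smpdl3a, Igfbp6 and Idh1 (all 0.998), and most like Sesn3 were Il6ra (0.993), Sort1 (0.99) and Fnbp1 (0.987). The other 5 genes ranged by less than 1 log2 and were not searched.

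Of 55 other pathway genes tested under BCAA removal with TGF-β1, 14 rose and 16 fell, with a median of 0.04. Over all genes tested, 35.52% rose and 24.82% fell, so the share of these 55 that was called was below the background of 60.3%. On the list of remaining amino acid sensors, leucyl-tRNA synthetase Lars, also proposed as a leucine sensor, rose (365 against 91.0 TPM, 1.99, adjusted p = 7.3e-15). Castor2, from the family of the arginine sensor, fell (12.3 against 33.4 TPM, -1.39, adjusted p = 2.9e-05). Of 5 GATOR1 partners and KICSTOR genes, 2 rose and 2 fell, led by the KICSTOR subunit Itfg2 (25.7 against 10.3 TPM, 1.24). Of 7 genes for the remaining Rags, Ragulator and Slc38a9, 0 rose and 2 fell. Among 8 mTORC partners, the inhibitory subunit Deptor fell (2.01 against 10.7 TPM, -1.91), while Telo2 (1.15) and the inhibitory subunit Akt1s1 (0.90) rose.

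The lists of the upstream regulators can be read beside the 10 genes. Of 12 ATF4 targets, 11 rose and 0 fell when BCAA were removed under TGF-β1 (median 1.71), led by Trib3 (3.49), Ddit3 (3.37) and Slc7a11 (3.10). All 12 fell with BCAA or with BCKA returned (medians -1.63 and -1.57), where 33.3% and 33.37% of all genes fell. The returns share the libraries of BCAA-free medium with the removal, so they are not separate evidence. Of 9 FoxO targets, 1 rose and 5 fell, among them Pik3ip1 (11.8 against 43.4 TPM, -1.80). Of 10 p53 targets, 4 rose and 1 fell, led by Mdm2 (253 against 112 TPM, 1.16). Of 13 lysosomal TFEB targets, 4 rose and 3 fell, with Sqstm1 (1350 against 478 TPM, 1.50) and Gpnmb (43.5 against 15.7 TPM, 1.41) the leading rises. Of 10 glucocorticoid and hypoxia targets, 2 rose and 4 fell. For the FoxO, p53, TFEB and glucocorticoid and hypoxia lists, the shares called in either direction were near or below the 60.3% of all genes. Nothing is read from those shares. By direction, 35.52% of all genes rose and 24.82% fell in this comparison. Furthest above these values were the ATF4 targets that rose, 11 of 12, and the FoxO targets that fell, 5 of 9. The part of either factor was not tested. Without TGF-β1, BCAA removal called 0 of the 55 pathway genes and 0 of the 12 ATF4 targets in limma, against 0.91% of all genes. At an unadjusted p under 0.05 stood 2 of the 55 and 3 of the 12, against 987 of all 13084 genes.

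In whole lung, levels reflect many cell types, and fewer cells of a type cannot be told apart from less RNA per cell. The 3 experiments were run and normalised separately, so tests were made within each. At 14 days in the water experiment, bleomycin called 5 of the 10 genes (background 21.9%): Sesn3, Rragc and Rragd rose, Sesn1 and Sesn2 fell. In the BT2 experiment it called 3 (background 30.6%): Sesn3 and Rragc rose and Sesn2 fell. In the diet experiment, at 21 days, it called 9 (background 60.9%), of which all but Rragd rose.

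**Figure D3:**
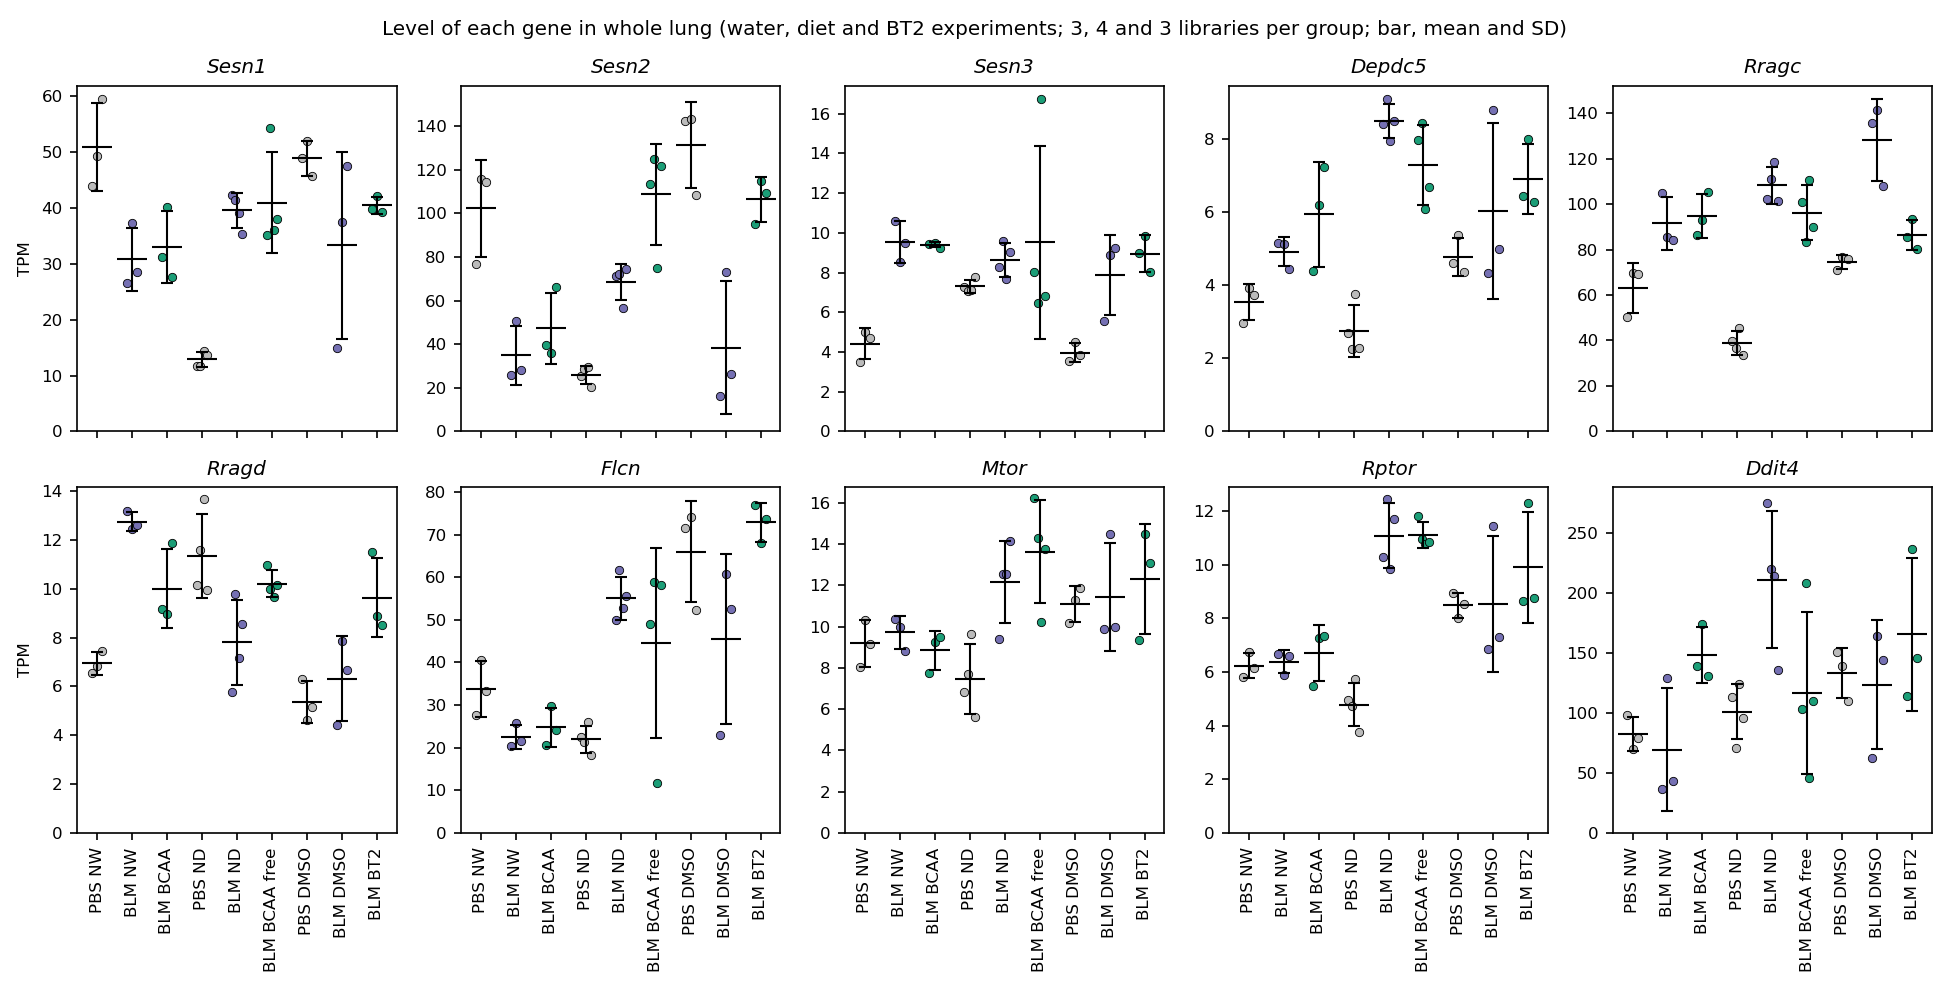
TPM (vertical axes, from 0) of the 10 genes in the 9 whole-lung groups; grey points are PBS mice, purple points bleomycin mice and green points bleomycin mice with BCAA in water, BCAA-free diet or BT2, and bars give mean and SD. Sesn2 is lower with bleomycin than with PBS in the water and BT2 experiments and higher in the diet experiment, where the 4 PBS mice read 20.2 to 29.4 TPM.

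Sesn2 stood at 76.6, 116 and 115 TPM in the PBS mice of the water experiment and 25.7, 50.6 and 28.2 TPM with bleomycin, lower in every mouse (-1.57 ± 0.29, adjusted p = 0.00381). In the BT2 experiment it stood at 142, 144 and 108 TPM with PBS and 16.1, 73.1 and 26.3 TPM with bleomycin, again without overlap but with a wide spread (-2.01 ± 0.43, adjusted p = 0.00722). Leaving out the lowest bleomycin mouse, replicate 1, gave -1.55 (adjusted p = 0.0149). Of 12 ATF4 targets, 11 fell with bleomycin in the water experiment and 6 in the BT2 experiment, and 0 rose in either, led in both by Slc7a11 (-4.37 and -4.44) and Chac1 (-3.57 and -3.67). Over all genes tested, 7.08% fell in the water experiment and 13.32% in the BT2 experiment.

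Sesn1 read 43.9, 49.4 and 59.5 TPM with PBS and 26.6, 37.3 and 28.6 TPM with bleomycin in the water experiment, lower in every mouse (-0.71 ± 0.19, adjusted p = 0.0205). That call was lost without PBS replicate 2 or 3, or bleomycin replicate 1 or 3 (adjusted p from 0.0514 to 0.0749). Sesn3 went the other way, from 3.52, 5.01 and 4.72 TPM to 10.6, 8.52 and 9.49 TPM in the water experiment and from 3.54, 4.52 and 3.85 TPM to 5.55, 8.87 and 9.21 TPM in the BT2 experiment. Bleomycin mice were above in both (0.97 ± 0.16, adjusted p = 0.00229 in the first, and 0.81 ± 0.22, adjusted p = 0.0211 in the second). In the second the call was lost without PBS replicate 1 or 3 or bleomycin replicate 3 (adjusted p from 0.0593 to 0.0815).

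Rragc rose in all 3 experiments. With PBS and bleomycin it read 50.5, 69.8 and 69.5 and then 105, 85.5 and 84.3 TPM in the water experiment (0.54 ± 0.16, adjusted p = 0.0377), with no overlap. In the BT2 experiment it read 71.2, 76.7 and 75.7 and then 136, 142 and 108 TPM, also separate (0.77 ± 0.14, adjusted p = 0.00413). The water call was lost without any of 4 single mice (adjusted p from 0.051 to 0.12) and, at 0.35, after rescaling without mitochondrial and Scgb1a1 transcripts (adjusted p = 0.0958), while the BT2 call held under every alternative tried. Rragd rose in the water experiment, from 6.55, 6.82 and 7.46 TPM to 13.2, 12.5 and 12.6 TPM with no overlap (0.79 ± 0.15, adjusted p = 0.0045), and overlapped in the BT2 experiment (0.18 ± 0.24, adjusted p = 0.595). Without PBS replicate 2, or bleomycin replicate 1 or 3, the water count was 3 of the 10 genes, and without bleomycin replicate 2 it was 7. After the rescaling, 2 genes rose there and 3 fell. Of 13 lysosomal TFEB targets, 9 rose in each experiment, among them Gpnmb (3.82 and 4.55) and Ctsd (2.30 and 2.99). Sqstm1 fell in both (-1.87 and -1.80), and Atp6v1h, Mcoln1 and Uvrag did not pass in either. Over all genes tested, 14.85% rose in the water experiment and 17.26% in the BT2 experiment.

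Flcn, at 27.6, 40.5 and 33.2 TPM with PBS and 20.3, 25.7 and 21.5 TPM with bleomycin in the water experiment, was lower in every mouse but missed the threshold (-0.55 ± 0.18, adjusted p = 0.0534). In the BT2 experiment its groups overlapped (-0.62 ± 0.31, adjusted p = 0.159). Ddit4, Mtor, Rptor and Depdc5 were not called in either experiment. For Ddit4 the difference was -0.47 (95% interval -1.30 to 0.36) in the water experiment and -0.21 (-1.03 to 0.62) in the BT2 experiment.

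Cell markers moved with these results. The 4 scar-associated macrophage markers, among them Gpnmb, summed to 474 to 627 TPM with PBS and 3495 to 4166 TPM with bleomycin in the water experiment, and to 360 to 639 and 9471 to 18480 TPM in the BT2 experiment. The 5 fibroblast markers summed to 188 to 321 and 617 to 880 TPM, and to 222 to 262 and 1800 to 2292 TPM. The 4 alveolar type 2 markers overlapped in the water experiment (39530 to 40470 and 33850 to 47520 TPM) but stood at 46620 to 59530 TPM with PBS and 2245 to 15230 TPM with bleomycin in the BT2 experiment. All of these markers read at least 1 TPM in every library, except 1 scar-associated macrophage marker in the PBS group of the BT2 experiment. In the fibroblast cultures, 3 of the 4 scar-associated macrophage markers also read at least 1 TPM in every library, and Gpnmb is on the TFEB list too. Their part in the results was not tested.

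In the diet experiment 8 of the 10 genes rose and 1 fell with bleomycin. All genes tested drifted up there by a median of 0.56, and with median centring 5 rose (Sesn1, Sesn2, Rragc, Rptor and Depdc5) and 1 fell (Rragd). Sesn1 read 11.7, 11.8, 14.5 and 13.6 TPM with PBS and 42.4, 41.5, 39.2 and 35.3 TPM with bleomycin (1.55 ± 0.15, adjusted p = 2.29e-06, and 0.99 when centred). Sesn2 read 25.6, 28.6, 29.4 and 20.2 TPM and 71.4, 72.1, 56.6 and 74.6 TPM (1.38 ± 0.18, adjusted p = 3.10e-05, and 0.81 when centred). Every bleomycin mouse was above every PBS mouse for both genes, which is the reverse of the water experiment, as the plot of bleomycin effects shows. Of the 12 ATF4 targets, 1 rose there, Vldlr (1.54), and 2 fell, Slc7a11 (-1.60) and Asns (-0.76), with a median of -0.18, where 48.66% of all genes rose and 12.27% fell.

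Rragc read 39.6, 36.8, 45.6 and 33.6 TPM with PBS and 102, 111, 119 and 101 TPM with bleomycin, separate groups (1.46 ± 0.13, adjusted p = 1.22e-06, and 0.90 when centred). Rragd fell, from 10.2, 11.6, 13.7 and 9.94 TPM to 5.75, 9.79, 7.15 and 8.56 TPM (-0.50 ± 0.16, adjusted p = 0.0172), again with no overlap. Centring made this fall larger (-1.06, adjusted p = 4.08e-05), and leaving out bleomycin replicate 1 removed the call (-0.38, adjusted p = 0.0578). Depdc5 (2.25 to 3.75 and 7.94 to 9.08 TPM) and Rptor (3.76 to 5.72 and 9.86 to 12.5 TPM) rose without overlap (1.36 ± 0.16, adjusted p = 1.19e-05 for Depdc5, and 1.07 ± 0.14, adjusted p = 2.62e-05 for Rptor). The rises of Flcn (1.29 ± 0.40, adjusted p = 0.0128), Mtor (0.65 ± 0.19, adjusted p = 0.00938) and Ddit4 (1.04 ± 0.37, adjusted p = 0.0287) were lost on centring (adjusted p = 0.096, 0.635 and 0.281). Rescaling without mitochondrial and Scgb1a1 transcripts also removed them, leaving 5 genes up and 1 down.

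The 4 PBS mice of the diet experiment carried another marker profile than their bleomycin partners and than the other PBS groups. Their 4 endothelial markers summed to 123 to 202 TPM, against 1289 to 1874 TPM with bleomycin and 915 to 1827 TPM in the PBS mice of the other experiments. Alveolar type 1 markers summed to 655 to 1103 against 3492 to 4664 TPM, leukocyte markers to 1193 to 1810 against 7720 to 11060 TPM, and ciliated markers to 762 to 1026 against 122 to 213 TPM. The club cell transcript Scgb1a1 made up 10.8 to 27.3% of TPM in these 4 libraries and 2.41 to 2.83% with bleomycin, and mitochondrial transcripts 12.2 to 17.3% and 4.42 to 5.29%. Since the whole group is affected, the diet comparison cannot be made without these libraries, and the part of this profile in it was not tested.

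**Figure D4:**
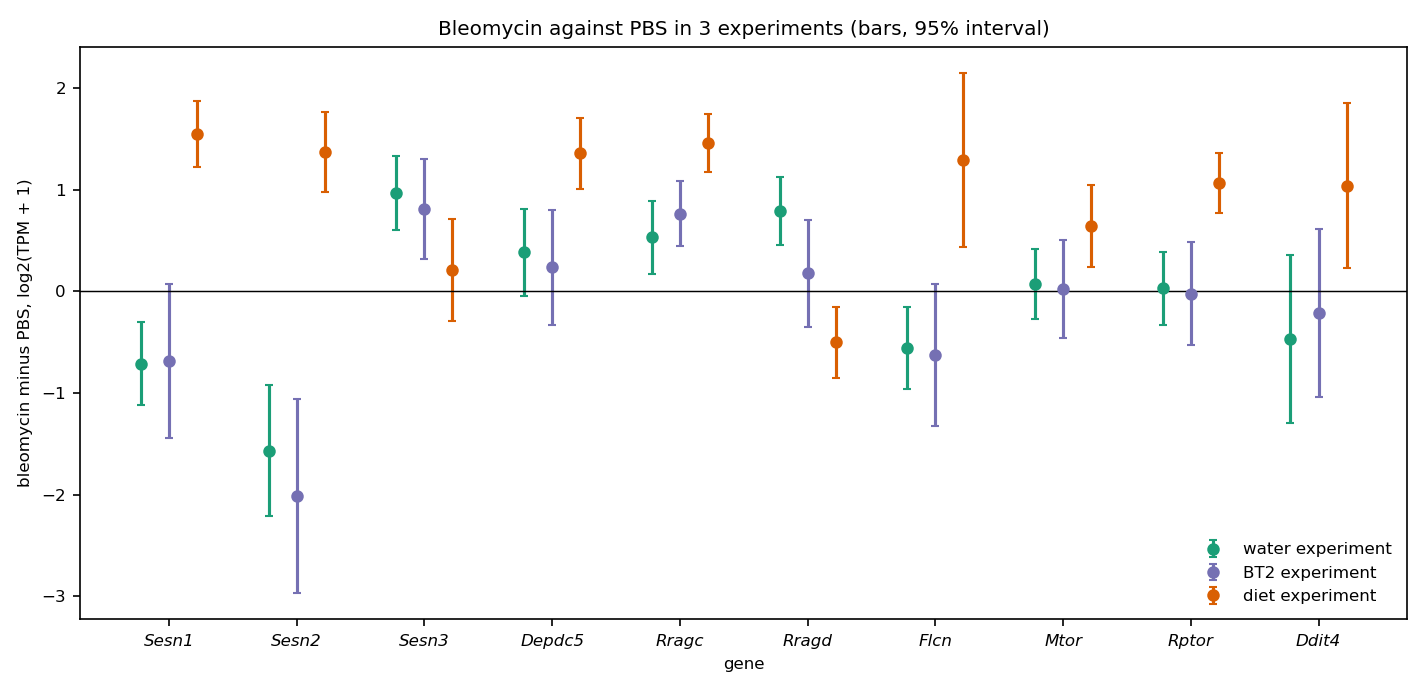
Mean difference of log2(TPM + 1), bleomycin minus PBS, for the 10 genes in the water (green), BT2 (purple) and diet (orange) experiments, with 95% intervals from limma as bars. Sesn1 and Sesn2 lie below 0 in the water and BT2 experiments and above 0 in the diet experiment; Rragc lies above 0 in all 3.

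The treatments added to bleomycin called few genes, both among the 10 and among all genes tested. The counts below are therefore not read as particular to the 10. BCAA in drinking water called 0 of the 10 in limma, against 1.2% of all genes. An unadjusted p under 0.05 was reached by 1 of the 10 and by 2896 of all 17209 genes. Ddit4 read 139, 175 and 131 TPM with BCAA water and 36.5, 129 and 43.1 TPM with plain water, where replicate 2 alone neared the treated mice (1.31 ± 0.38, adjusted p = 0.12). Without that replicate, 1 of the 10 genes was called. Rragd read 9.16, 8.98 and 11.9 TPM with BCAA water and 13.2, 12.5 and 12.6 TPM with plain water, lower in every mouse but short of the test (-0.33 ± 0.15, adjusted p = 0.305). The 4 scar-associated macrophage markers summed to 8204 to 10010 TPM with BCAA water, against 3495 to 4166 TPM without, and the part of this shift was not tested.

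The BCAA-free diet called 1 of the 10 genes, against 10.1% of all genes. Sesn2 read 114, 125, 74.9 and 122 TPM with the BCAA-free diet and 71.4, 72.1, 56.6 and 74.6 TPM on normal diet, higher in every mouse (0.64 ± 0.18, adjusted p = 0.0432). Without replicate 3, the library that stood apart and the lowest of the treated mice, the difference was 0.80 (adjusted p = 0.00269). The call was lost without any other single mouse of either group (adjusted p from 0.0615 to 0.137), without the low-value filter (adjusted p = 0.0744) and with a pseudocount of 0.1 (adjusted p = 0.05003). With median centring, which moves all genes by -0.13, Rragd was called too (0.49, adjusted p = 0.0357). Alveolar type 2 markers summed to 39130 to 58170 TPM with the BCAA-free diet and 18660 to 26250 TPM on normal diet, and the part of this difference was not tested. In limma 0 of the 12 ATF4 targets were called, with a median of -0.09. An unadjusted p under 0.05 was reached by 4 of the 12 and by 4698 of all 18593 genes.

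BT2 called 2 of the 10 genes, against 11.8% of all genes. Sesn2 read 95.1, 115 and 109 TPM with BT2 and 16.1, 73.1 and 26.3 TPM with DMSO, higher in every mouse (1.72 ± 0.43, adjusted p = 0.0348). Rragc read 85.4, 93.6 and 80.3 TPM with BT2 and 136, 142 and 108 TPM with DMSO, lower in every mouse (-0.56 ± 0.14, adjusted p = 0.038). Both calls were lost without the low-value filter (adjusted p = 0.0802 and 0.0599), without bleomycin replicate 1 (adjusted p = 0.0775 and 0.0824) and without any of the 3 BT2 mice (adjusted p from 0.0548 to 0.142). That of Sesn2 was also lost without bleomycin replicate 3 (adjusted p = 0.0594). Of the 12 ATF4 targets, 3 rose with BT2, namely Chac1 (2.09), Slc7a11 (2.02) and Trib3 (0.91), and 0 fell, where 6.34% of all genes rose. Of the genes for the remaining Rags, Ragulator and Slc38a9, 0 of 8 rose and 2 fell, Lamtor1 (-0.93) and Lamtor3 (-0.59), where 5.41% of all genes fell. Alveolar type 2 markers stood at 42710 to 75210 TPM with BT2, against 2245 to 15230 TPM with DMSO, and scar-associated macrophage markers at 1620 to 2811 against 9471 to 18480 TPM. Their part in these differences was not tested.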

How the data were processed

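The authors deposited 4 tables of TPM per gene and library, 1 for fibroblasts and 1 for each mouse experiment, and per the file headers each column is 1 sample. Per the submitters' processing notes, the tools were HISAT2, featureCounts, Subread, DESeq2, FastQC and Trim Galore on build mm39, with no version or step given. The annotation used is not named in these sources. The labels speak of RNA from heart tissue, while every tissue sample is labelled lung. Rows without a symbol (0.212 to 0.367% of lung TPM) were left out and repeated symbols (27 to 29 rows per lung table) summed. TPM holds no counts, so depth is unknown and no counting interval is given.

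Samples were grouped by their titles. Genes with at least 1 TPM in at least 3 libraries were taken as log2(TPM + 1) and fitted per table with group means and a mean-variance trend in limma 3.58.1 (R 4.3.3), with two-sided Benjamini-Hochberg adjusted p-values over all genes tested: 13084 in fibroblasts, 17209 in the water, 18593 in the diet and 18151 in the BT2 experiment. The script was tested on simulated data. There were 20 comparisons. Figures, intervals and summaries used Python 3.11.15.

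The 10 genes, the 14 gene lists, the marker lists and the alternatives were chosen with earlier results of these data known. Named genes are the 10, at most 3 called genes per list and comparison with the largest change, and the 3 most alike in pattern. Other settings tried were no filter, a minimum of 5 TPM, pseudocounts of 0.5 and 0.1, median centring, the replicate number as a block, only the compared groups, and each library left out; rescaling without mitochondrial and Scgb1a1 transcripts was added after the data were seen. Same-numbered libraries did not deviate together (median r 0.0107 in fibroblasts and -0.0508, -0.0083 and 0.0254 in the lung tables), so numbers were not taken as pairs. The sample labels number the cultures and mouse experiments as batches 1 to 4, while the series text numbers the mouse experiments 1 to 3; under either numbering each table is 1 batch, and no comparison crosses tables.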

Additional observations from a re-analysis of the deposited data

Results flagged for a closer look

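The response to TGF-β1 differed between BCAA-free and complete medium, by the interaction test in limma, for Rragd (2.92), Sesn2 (1.82), Flcn (1.03), Rptor (0.94), Rragc (0.81), Ddit4 (0.53) and Sesn1 (-1.10), all on the log2(TPM + 1) scale. Over all genes, 47.6% differed. The Ddit4 call was lost with median centring, with only the compared groups and without replicate 3 of BCAA-free medium with PBS (adjusted p from 0.0696 to 0.149).

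For 4 genes, every bleomycin mouse lay on one side of every PBS mouse in one experiment and on the other side in another, and these differences between experiments were not tested. The share of all genes with such a reversal is not given here, so the count is not read as particular to these genes. Sesn2 was lower in the water and BT2 experiments (-1.57 and -2.01) and higher in the diet experiment (1.38). Sesn1 was lower in the water experiment (-0.71) and higher in the diet experiment (1.55). Flcn was lower in the water experiment (-0.55) and higher in the diet experiment (1.29), but the first value did not pass in limma (adjusted p = 0.0534) and the second lost its call on median centring (adjusted p = 0.096) and on rescaling (adjusted p = 0.0891). Rragd was higher in the water experiment (0.79) and lower in the diet experiment (-0.50). The experiments also differed in the day of collection, and the PBS mice of the diet experiment carried the marker profile given above.

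A single mouse stood far from the other 3 of its group in 3 of 30 pairs of a gene and a diet group, where chance alone would single out about 1 in 20. All were in the group on the BCAA-free diet: Sesn1 at 54.4 TPM in replicate 2, Sesn3 at 16.7 TPM in replicate 3 and Rptor at 11.8 TPM in replicate 1. Replicate 3 is the library with only 17554 genes above 0. Mitochondrial transcripts made up 16.5% of its TPM, against 4.38 to 5.66% in the rest of its group. The genes were read in the same libraries, so the pairs are not independent. How often a mouse stood this far from its group over all genes is not given here. The count is therefore not read as particular to these genes.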

How the results depend on the processing

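Of 73 called values over 20 comparisons, 50 kept their call and direction under every alternative tried, 23 lost the call under at least 1 alternative, and 0 changed sign; 5 lost it only when a single library was left out. The number of the 10 genes called fell from 1 to 0 for BCAA removal without TGF-β1 (pseudocounts of 0.5 and 0.1, median centring, only the compared groups), from 1 to 0 for the BCAA-free diet (pseudocount of 0.1, no filter, only the compared groups; 2 with centring) and from 2 to 0 for BT2 (no filter, only the compared groups). With only the compared groups, TGF-β1 with BCAA returned called 6. With the replicate number as a block, BCAA removal without TGF-β1 and the BCAA-free diet each called 0, BCKA return without TGF-β1 called 1, and no other count moved by over 1.5 times. Leaving out each library in turn gave 3 to 5 genes for TGF-β1 in complete medium, 0 for BCAA removal without TGF-β1, 2 to 4 for TGF-β1 with BCKA, 3 to 7 for bleomycin in the water experiment, 0 to 1 for BCAA in water, 0 to 1 for the BCAA-free diet and 0 to 3 for BT2. It gave 7 to 8 for BCAA removal under TGF-β1, 8 for TGF-β1 in BCAA-free medium and 7 to 9 for each return. The cause of these losses was not tested. Groups of 3 or 4 libraries and an unknown depth limit what could be called. In fibroblasts outside BCAA-free medium with TGF-β1, Rragd lay at only 1.3 to 3.86 TPM.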
